A study of Mus musculus with 42 samples.

Results

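The genes described here are 38 immediate early and heat shock genes, found by symbol among the 46603 Ensembl genes of the count table. All 38 were found. They fall into 6 roles. The AP-1 and ATF factors are Fos, Fosb, Fosl2, Jun, Junb, Jund, Atf3 and Maff (8 genes). The Egr and Nr4a factors are Egr1, Egr2, Egr3, Nr4a1, Nr4a2 and Nr4a3 (6 genes). The other early response genes are Ier2, Ier3, Ier5, Btg2, Klf6, Csrnp1 and Per1 (7 genes). The feedback inhibitors are Zfp36, Dusp1, Dusp2, Dusp5, Nfkbiz, Socs3, Gadd45b and Ppp1r15a (8 genes). The heat shock chaperones are Hspa1a, Hspa1b, Hspa8, Dnajb1, Dnaja1, Hsp90aa1 and Hsph1 (7 genes). The surface and signalling genes of activated T cells are Rgs1 and Cd69 (2 genes). They were measured in 42 bulk RNA libraries of mouse CD4 T cells in 16 groups. Cells were sorted as regulatory T cells (Treg, positive for a Foxp3-driven GFP) or conventional T cells (Tconv, negative for it) taken at 4 sites: ileum with its draining mesenteric node, and synovium of the ankle with its joint nodes (inguinal and popliteal nodes together). Every mouse carried DEREG, a transgene that places GFP under Foxp3 control, so the WT littermates are WT DEREG. The mice called TNFdARE also lack the AU-rich element of the Tnf transcript, on which decay of that message depends. Treg and Tconv came from both genotypes at each site in 3 independent experiments, called A, B and C. A group has 3 libraries, 1 per experiment, except that TNFdARE mesenteric Treg and Tconv have B and C, TNFdARE synovial Tconv has A and B, WT synovial Treg has A and B, and WT synovial Tconv has A alone. The labels used here give neither the animals per library, nor their age, nor how cells were released from tissue.

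Immediate early genes are transcribed within minutes of a stimulus from factors already present in the cell. In T cells the antigen receptor raises Nr4a and Egr factors through calcium and MAP kinase signalling, and Nr4a1 is widely used as a reporter of that signal. AP-1 factors, Dusp1 and the inducible HSP70 genes Hspa1a and Hspa1b also respond to heat, stress and enzymatic release of cells from tissue. Feedback genes of the group switch these signals off: dual-specificity phosphatases dephosphorylate MAP kinases, and Zfp36 (tristetraprolin) binds AU-rich elements, that of Tnf among them.

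Total counts lay between 18261064 and 30301202 per library, so counting error was small for all but the lowest members. Genes detected stood apart in joint node Tconv of WT C (31454) and TNFdARE B (29599), against at most 21065 in any other library. Both libraries enter the comparisons that use joint node Tconv, and what sets them apart was not tested. T cell markers were found in all libraries, but their summed level was lower in tissue. Its median was 4825 CPM in synovial against 6012 CPM in joint node Treg, and 5201 against 8100 CPM in Tconv of these sites. For ileum against mesenteric node the medians were 6370 against 7411 CPM in Treg and 7936 against 8412 CPM in Tconv. Foxp3 was 27.6-fold higher in ileal Treg than in ileal Tconv. In the TNFdARE synovium Foxp3 was 2.21-fold higher in Treg (adjusted p = 0.927), which did not pass, and TNFdARE synovial Tconv held 17.9-fold more Foxp3 than TNFdARE joint node Tconv (adjusted p = 2.51e-07). Its part in the synovial Tconv results was not tested. Libraries of tissue also held RNA of other cells. All 6 fibroblast markers passed as higher in ileal than in mesenteric Treg and Tconv, and all 6 in synovial Treg. Their summed level was 1435 to 16330 CPM (counts scaled to library size) in synovial Treg, 252.8 to 1921 CPM in synovial Tconv, 16.15 to 2304 CPM in ileal Treg and 3.681 to 308.2 CPM in ileal Tconv, against at most 6.769 CPM in any node library. Of these markers, Lum was at 0 in every node Treg library and in every mesenteric Tconv library, and Dcn in the latter. All 5 plasma cell markers passed as higher in ileal Treg and Tconv. Their sum was highest in the ileal Treg libraries of experiment A, which held 10580 CPM (TNFdARE) and 3432 CPM (WT), and at least 284.5 CPM in the others. Many early response genes are expressed by fibroblasts and other stromal cells, and the part of these cells in the differences between tissue and node was not tested. Bulk values cannot tell fewer cells of a type from less RNA per cell.

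Most of the members were higher in tissue than in nodes in both sorts. The mean log2 CPM over the 38 members was 8.04 to 8.96 in the 20 tissue libraries and 4.92 to 7.22 in the 22 node libraries, so tissue and node did not overlap. The node library closest to tissue was TNFdARE mesenteric Treg of experiment B. The score difference was 2.23 between ileal and mesenteric Treg (pooled SD between libraries 0.588), 2.82 for the same sites in Tconv (0.458), 2.58 between synovial and joint node Treg (0.401) and 2.96 in TNFdARE Tconv of synovium and joint nodes (0.369). It has no test, because the members were chosen with results known. Gene by gene (edgeR quasi-likelihood test, Benjamini-Hochberg adjustment over all tested genes), 25 of 38 members passed as higher and 2 as lower in ileal Treg, where 17% of 16723 tested genes passed as higher and 12.2% as lower. In ileal Tconv 29 passed as higher and 3 as lower, where 34.3% and 26.7% of genes did. In synovial Treg 32 were higher and 3 lower (19.2% and 18.5% of genes). In TNFdARE synovial Tconv 24 were higher and 2 lower (17.2% and 14.1%). The median log2 difference of the members was 1.82, 3.17, 2.19 and 2.53 in this order, against 0.03, 0.08, −0.09 and −0.11 for all tested genes.

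**Figure D1:**
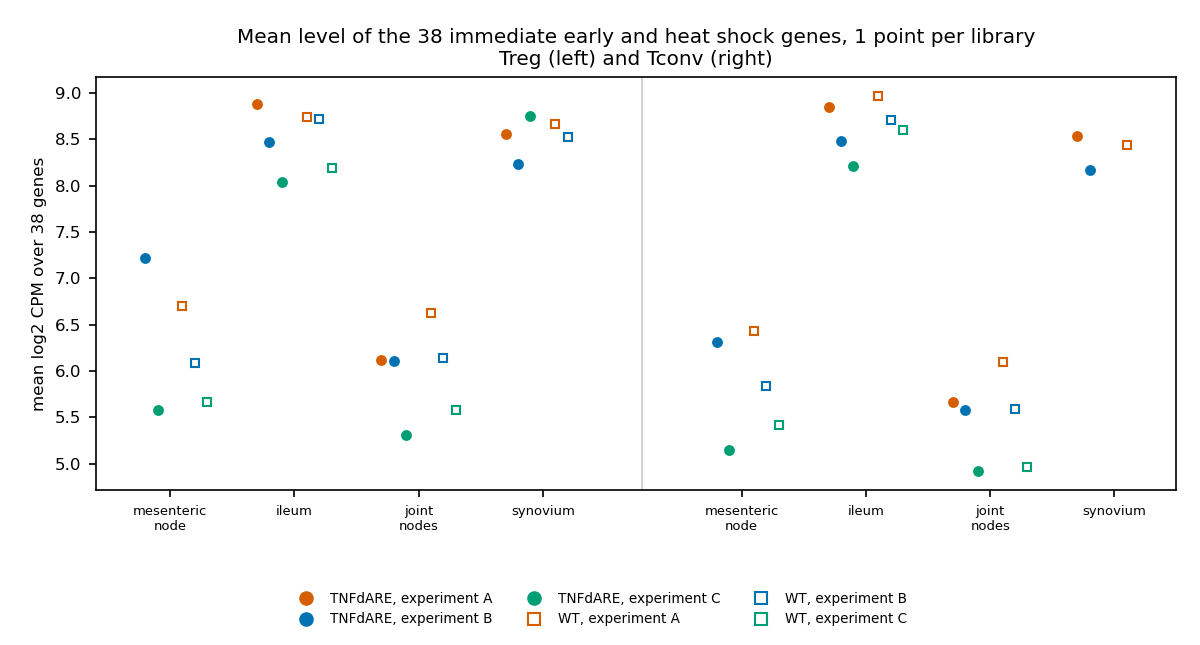
Mean log2 CPM over the 38 members (y axis) for each site (x axis), Treg left and Tconv right, with 1 point per library, coloured by experiment and filled for TNFdARE. All 20 tissue libraries sit at 8.04 or above and all 22 node libraries at 7.22 or below.

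The Nr4a factors, orphan nuclear receptors, were higher in tissue in every comparison. Nr4a1 lay at 1048, 1697 and 2009 CPM (lowest, median and highest) in ileal Tconv and at 75.09, 125.5 and 144.9 CPM in mesenteric Tconv. In Treg it lay at 1263, 2048 and 2248 CPM in the ileum and at 124.5, 196.9 and 318.2 CPM in the mesenteric node. Every tissue library exceeded every node library. The log2 difference was 3.15 ± 0.30 (SE) in ileal Treg (adjusted p = 5.89e-05), 3.81 ± 0.23 in ileal Tconv, 3.82 ± 0.23 in synovial Treg and 4.48 ± 0.21 in TNFdARE synovial Tconv. Nr4a2 rose further in the ileum, by 4.88 ± 0.32 on the log2 scale in Treg and 5.56 ± 0.25 in Tconv. Nr4a3 rose by 3.46 ± 0.30 and 4.22 ± 0.18 there, and by 2.62 ± 0.42 in synovial Treg.

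The Egr factors, zinc finger proteins raised by the same receptor signal, followed the Nr4a factors only in part. Egr1 passed as higher in the synovium, by 2.39 ± 0.17 in Treg and 1.66 ± 0.19 in TNFdARE Tconv. In the ileum its log2 difference was 0.64 ± 0.54 in Treg and 0.26 ± 0.12 in Tconv, and neither passed. Set directly against each other, ileal and synovial Treg differed in Egr1 by −1.22 ± 0.54 (adjusted p = 0.194), which did not pass. Egr2 lay at 12.29, 28.31 and 52.09 CPM in ileal Treg and at 98.19, 109.5 and 131 CPM in mesenteric Treg, and these ranges did not overlap. It was 3.87-fold lower in ileal Treg (log2 difference −1.95 ± 0.24, adjusted p = 0.000318). It was also lower in ileal Tconv (−0.62 ± 0.11), a call lost with WT libraries alone (−0.175, adjusted p = 0.364) and in a fit of all 42 libraries (−0.624, adjusted p = 0.0667), and in synovial Treg (−1.21 ± 0.35, adjusted p = 0.0232), while in TNFdARE synovial Tconv the difference was −0.08 ± 0.17. Without the WT synovial Treg library of experiment B the synovial Treg call on Egr2 was lost (−1.01, adjusted p = 0.0593), and with WT libraries alone its difference was −0.28 (adjusted p = 0.722). Egr3, at no more than 5.726 CPM in any library, was lower in ileal Treg (−2.48 ± 0.47), ileal Tconv (−1.28 ± 0.27) and synovial Treg (−3.50 ± 0.64). The synovial Treg value of Egr3 rests on WT, whose libraries were at 0 and 0.0465 CPM; with TNFdARE libraries alone the difference was −0.17 (adjusted p = 0.903).

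The AP-1 and ATF factors, which pair to bind shared DNA sites, passed as higher in 5 of 8 members in ileal Treg, 8 of 8 in ileal Tconv, 8 of 8 in synovial Treg and 5 of 8 in TNFdARE synovial Tconv, and none was lower. Fosl2 lay at 176.9, 276.8 and 380.3 CPM in ileal Treg against 3.281, 5.404 and 14.85 CPM in mesenteric Treg. The ranges are far apart, and the log2 difference was 5.33 ± 0.34 (40.3-fold, adjusted p = 5.37e-06). It was 5.92 ± 0.25 in ileal Tconv, 5.32 ± 0.46 in synovial Treg and 5.02 ± 0.48 in TNFdARE synovial Tconv. Atf3, a stress-induced repressor, was at most 3.785 CPM in the nodes with 0 counts in all 3 WT mesenteric Tconv libraries, whereas tissue libraries held 39.18 to 497.2 CPM. Because so few counts underlie the node values, no fold is given for Atf3; it passed in all 4 comparisons. Maff, a small Maf protein, rose by 2.99 ± 0.27 in ileal Treg and 4.61 ± 0.23 in ileal Tconv. Junb, the most abundant member per length in tissue, rose by 2.63 ± 0.49 and 3.31 ± 0.42 there.

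Fos and Jun were high in every tissue library, but their node levels spread so widely that some differences did not pass. Fos lay at 588.1, 1094 and 1824 CPM in ileal Treg, and at 10.94, 90.47 and 1123 CPM in mesenteric Treg. The ranges overlap, because the TNFdARE mesenteric Treg library of experiment B, at 1123 CPM, exceeded the lowest ileal libraries. The log2 difference was 1.71 ± 1.06 (adjusted p = 0.246). In ileal Tconv Fos was 3.12 ± 0.86 higher (adjusted p = 0.00757) and in synovial Treg 4.00 ± 0.98 higher (adjusted p = 0.0107). In TNFdARE synovial Tconv its difference of 4.12 ± 1.39 had an adjusted p of 0.0518. With experiment as a block in that fit, Fos (3.49 ± 0.32), Jun (1.76 ± 0.30), Junb (1.77 ± 0.25) and Ppp1r15a (1.26 ± 0.26) passed as well, where 15.5% of all genes passed as higher and 12.9% as lower, so that 28 members were higher and 2 lower. In ileal Treg Fos did not pass with the block (2.52 ± 1.05, adjusted p = 0.117). In the same comparison Fosb (1.92 ± 0.78) and Jun (1.62 ± 0.71) did not pass without or with it.

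**Figure D2:**
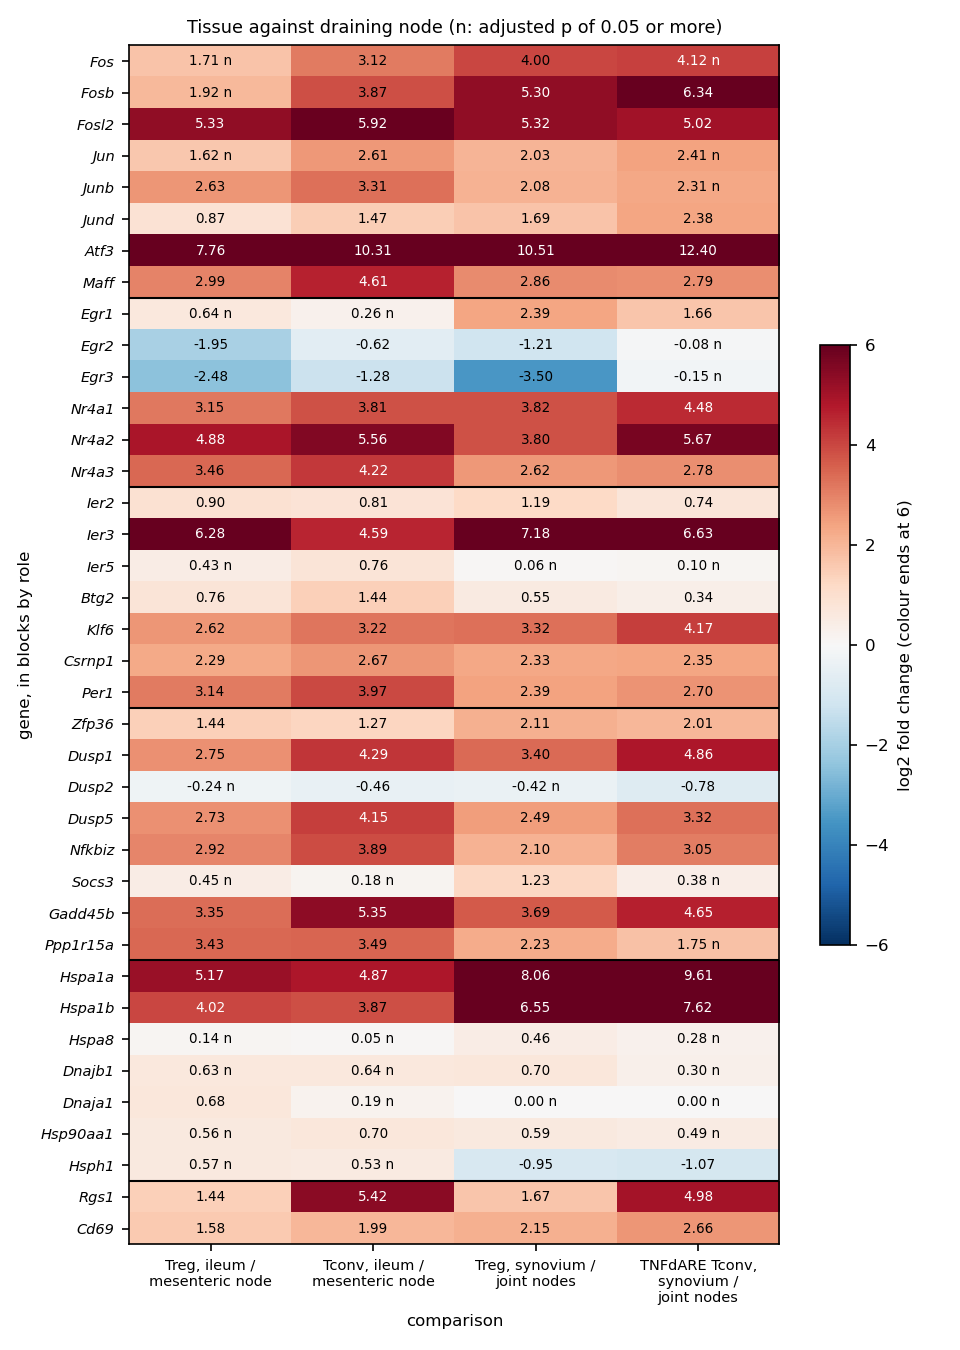
Log2 fold change (colour and printed value, colour ending at 6) of each of the 38 members (rows, in blocks by role) in the 4 comparisons of tissue with node (columns); n marks an adjusted p of 0.05 or more. Most rows are higher in tissue, and Egr2 and Egr3 are lower in 3 of the columns.

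Among the feedback inhibitors 6 of 8 passed as higher in ileal Treg, 6 in ileal Tconv, 7 in synovial Treg and 5 in TNFdARE synovial Tconv. Dusp5, a nuclear phosphatase of ERK, lay at 898.3, 1030 and 1137 CPM in ileal Tconv against 41.97, 62.12 and 66.08 CPM in mesenteric Tconv, with no overlap. Its log2 difference was 4.15 ± 0.12 (adjusted p = 2.86e-10), and 2.73 ± 0.14 in ileal Treg. Gadd45b, which acts upstream of p38, rose by 5.35 ± 0.24 in ileal Tconv and 3.35 ± 0.32 in ileal Treg. Nfkbiz, a nuclear IκB protein, rose by 3.89 ± 0.20 and 2.92 ± 0.22, and Dusp1, a phosphatase of p38 and JNK, by 4.29 ± 0.67 and 2.75 ± 0.64. Ppp1r15a (GADD34), which restores translation after stress, rose by 3.49 ± 0.56 and 3.43 ± 0.70. Dusp2 is the exception among the phosphatases: it was lower in ileal Tconv (−0.46 ± 0.13) and in TNFdARE synovial Tconv (−0.78 ± 0.26), and its Treg differences of −0.24 ± 0.18 and −0.42 ± 0.24 did not pass. The call on Dusp2 in TNFdARE synovial Tconv (adjusted p = 0.0485) held in 1 of 5 fits that left out a library. That in ileal Tconv was lost without the TNFdARE mesenteric Tconv library of experiment B (−0.35, adjusted p = 0.0578), with WT libraries alone (0.112) and in a fit of all 42 libraries (0.0881). Socs3, an inhibitor of STAT3 signalling, passed only in synovial Treg among these 4 comparisons (1.23 ± 0.14).

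Promoters of the members that moved together can be set side by side where RefSeq gives them (GRCm38.p6, 250 bases before to 50 after each start). A window was found for 30 of the 38 members, and the others were not searched. A member not named below for a motif therefore has either no window here or no match within it. Both strands were searched for the serum response element core (CArG box), for the full cAMP response element TGACGTCA and for the paired heat shock unit, GAANNTTC or TTCNNGAA. RefSeq gives some members several starts, and Egr2 holds a further CArG box, CCATATATGG, in the windows of 3 other starts. A member is named if any of its windows matches, whereas the shares are of single promoter windows, so the 2 are not like for like. The CArG box was found at Egr2, Zfp36 and Dusp5, and in 1.63% of 32851 promoters. The cAMP response element was found at Maff, Btg2, Dusp1 and Ppp1r15a, and in 1.79% of promoters. The heat shock unit was found at Fosl2, Jun, Egr2, Hspa1a, Hspa1b, Dnaja1 and Hsph1, and in 15.1% of promoters. A match is a description of letters and not a site of binding. Shown here, because Zfp36 and Dusp5 rose in tissue while Egr2 fell in 3 comparisons, are the windows around the CArG boxes (capitals), then those around the cAMP response element of Dusp1 and Ppp1r15a, whose node levels differ widely between experiments (below).
Zfp36, chr7:28379252-28379311, minus strand: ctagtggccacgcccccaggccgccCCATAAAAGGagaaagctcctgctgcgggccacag
Dusp5, chr19:53529038-53529107, plus strand, with adjoining boxes: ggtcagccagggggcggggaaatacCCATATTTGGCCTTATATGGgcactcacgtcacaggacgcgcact
Egr2, chr10:67537469-67537528, plus strand: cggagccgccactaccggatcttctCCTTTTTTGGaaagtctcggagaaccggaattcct
Dusp1, chr17:26508583-26508640, minus strand: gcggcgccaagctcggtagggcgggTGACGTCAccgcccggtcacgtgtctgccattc
Ppp1r15a, chr7:45526269-45526305, minus strand: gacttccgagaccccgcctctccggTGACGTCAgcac

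Of the other early response genes, 6 of 7 passed as higher in ileal Treg, 7 in ileal Tconv, 6 in synovial Treg and 6 in TNFdARE synovial Tconv, and none was lower. Klf6, a zinc finger factor, lay at 1317, 1579 and 1765 CPM in ileal Tconv and at 150.2, 163.6 and 186.5 CPM in mesenteric Tconv. The log2 difference was 3.22 ± 0.09 (adjusted p = 2.95e-10), with 2.62 ± 0.24 in ileal Treg, 3.32 ± 0.11 in synovial Treg and 4.17 ± 0.18 in TNFdARE synovial Tconv. Per1, a clock gene that also answers cAMP signals, rose by 3.97 ± 0.12 in ileal Tconv and 3.14 ± 0.22 in ileal Treg. Csrnp1, a nuclear protein of the early response, rose by 2.29 ± 0.18 to 2.67 ± 0.10 in the ileum. Ier2, Ier5 and Btg2, an antiproliferative factor, moved less: the largest log2 difference of Btg2 was 1.44 ± 0.06, in ileal Tconv. In TNFdARE synovial Tconv, Ier2 (0.74 ± 0.24) and Btg2 passed, but held in 0 and 2 of 5 fits that left out a library. Of these 4 comparisons, Ier5 passed in ileal Tconv alone (0.76 ± 0.14). Ier3, an apoptosis inhibitor, was at most 1.094 CPM in any node library and reached 152.2 CPM in WT synovial Treg, the group with the highest fibroblast marker sums among its libraries.

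In the heat shock group the inducible HSP70 pair parted from the other chaperones. Hspa1a and Hspa1b are near-identical neighbours (chr17:34969190-34972156 and chr17:34956436-34959238, GRCm38): 47.1% of the 100-base windows of the Hspa1a transcript occur unchanged in Hspa1b, so reads could be split between them in a way the counts do not show, and each value is uncertain between the copies. Their promoters match at 247 of 250 bases before the start, and the 58 bases around the heat shock unit (capitals) are the same in both, shown because the copies cannot be told apart by these bases.
Hspa1a, chr17:34972228-34972285, minus strand: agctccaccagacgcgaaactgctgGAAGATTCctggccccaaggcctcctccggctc
Hspa1b, chr17:34959310-34959367, minus strand: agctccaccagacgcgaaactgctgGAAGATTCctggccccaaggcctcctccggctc
The sum of the pair lay at 0.284 to 9.538 CPM in joint node Treg and at 264.4, 562.8 and 994.4 CPM in synovial Treg. No synovial library overlapped the joint nodes, and Hspa1a (adjusted p = 2.2e-05) and Hspa1b (adjusted p = 6.02e-05) passed there. In the mesenteric node the pair was already present in some libraries, at 1.132, 114.8 and 171.4 CPM in Tconv, against 54.47, 1308 and 3379 CPM in ileal Tconv. Ileum and mesenteric node overlap in this sum. Hspa1b was higher in ileal Treg (4.02 ± 1.21, adjusted p = 0.0334), but that call held in 4 of 11 fits that left out a library. Without the TNFdARE mesenteric Treg library of experiment C, the ileal Treg calls on Hspa1a (adjusted p = 0.0782), Hspa1b (0.106), Dnaja1 (0.0755), Ier2 (0.0683), Ier3 (0.0671) and Zfp36 (0.0832) were all lost.

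The other chaperones had smaller differences between tissue and node. Hspa8, the constitutive HSP70, lay at 1150, 1682 and 2241 CPM in ileal Tconv and at 1345, 1688 and 1943 CPM in mesenteric Tconv. Its log2 difference was 0.05 ± 0.15 there and 0.14 ± 0.18 in ileal Treg. In synovial Treg it passed as higher (0.46 ± 0.15, adjusted p = 0.0335), but held in 3 of 11 fits that left out a library. Dnajb1, an HSP40 co-chaperone, had differences of 0.63 ± 0.42 and 0.64 ± 0.38 in the ileum that did not pass, and 0.70 ± 0.17 in synovial Treg that did. Hsp90aa1, the inducible HSP90, was higher in ileal Tconv (0.70 ± 0.19) and synovial Treg (0.59 ± 0.14). Hsph1 (HSP110), a nucleotide exchange factor of HSP70, was lower in the synovium, with log2 differences of −0.95 ± 0.20 in Treg and −1.07 ± 0.31 in TNFdARE Tconv, and the latter call held in 2 of 5 fits that left out a library. Of 23 other heat shock and chaperone genes tested in ileal Treg, 7 passed as higher and 6 as lower, with a median of 0.03. Hspa2 (3.26), Dnajb4 (1.69), Bag3 (1.505) and Dnajb6 (1.01) had the smallest adjusted p among those that rose.

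Rgs1, which damps chemokine receptor signalling and is high in tissue-resident T cells, had node levels that differed widely between the sorts. It lay at 1386, 2632 and 4017 CPM in ileal Tconv against 23.14, 52.78 and 108.3 CPM in mesenteric Tconv. In Treg it lay at 1432, 1802 and 2131 CPM in the ileum against 489.2, 604.8 and 972.6 CPM in the mesenteric node. Neither pair of ranges overlaps, and the log2 difference was 5.42 ± 0.27 in Tconv and 1.44 ± 0.16 in Treg. Cd69, which holds T cells in tissue by binding S1P receptor 1, rose by 1.99 ± 0.10 in ileal Tconv and 1.58 ± 0.16 in ileal Treg, and by 2.15 ± 0.13 in synovial Treg.

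**Figure D3:**
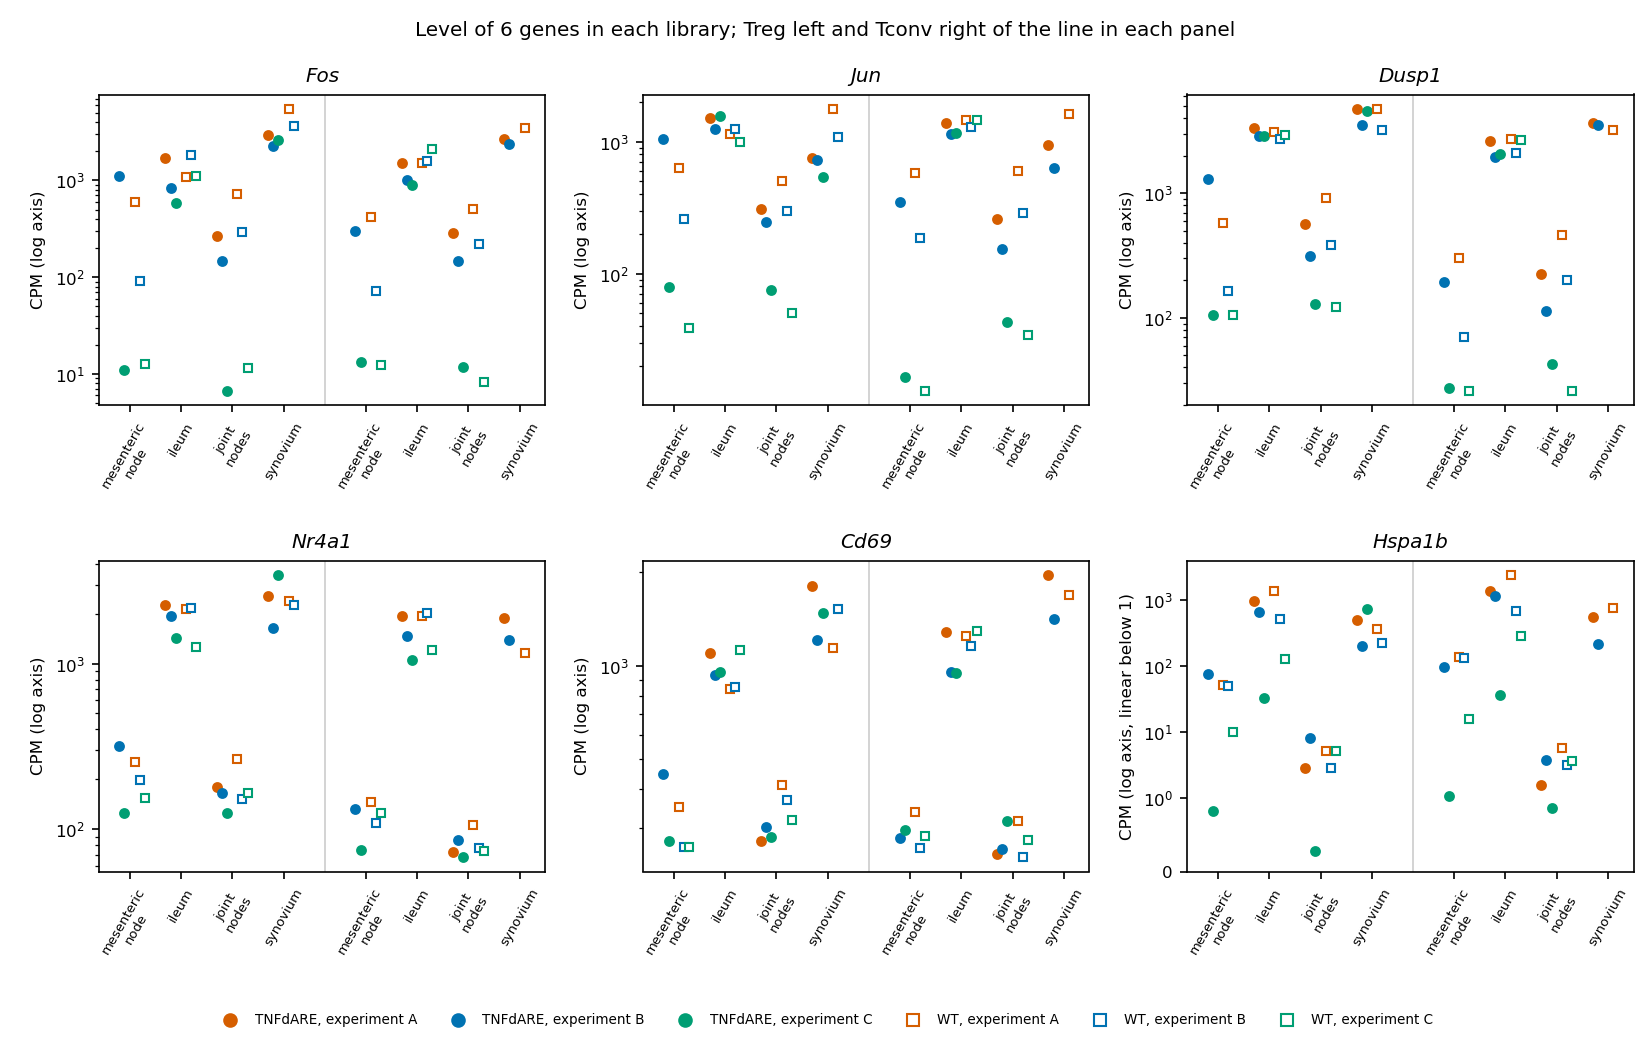
CPM of Fos, Jun, Dusp1, Nr4a1, Cd69 and Hspa1b in each library (y axis, log scale, linear below 1 for Hspa1b) by site (x axis), Treg left and Tconv right of the line, coloured by experiment and filled for TNFdARE. Nr4a1 separates tissue from node in every library, whereas Fos reaches 1123 CPM in the mesenteric node.

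Node libraries differed by experiment in many of these genes. This comparison was chosen after the values were seen. Fos lay at 265.4, 464.1 and 724.9 CPM in the 6 node libraries of experiment A, at 72.63, 185.1 and 1123 CPM in the 8 of B and at 6.627, 11.66 and 13.14 CPM in the 8 of C. Experiment C did not overlap A or B, in either sort, node or genotype. In tissue the same experiments gave 1074 to 5524 CPM (A), 832.1 to 3656 CPM (B) and 588.1 to 2628 CPM (C). Jun, Dusp1 and Ppp1r15a, at 12.85 to 79.29, 25.83 to 128.4 and 35.94 to 49.31 CPM in the nodes of C, were below the lowest node value of A, which was 258.6, 226.2 and 240.6 CPM.

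Fitted over all 22 node libraries with a mean per group, 22 of 38 members were higher in A than in C and 0 lower (edgeR, same adjustment), where 7.89% of 17108 genes passed as higher and 5.78% as lower. The median log2 difference was 0.64 for the members and −0.01 for all genes. Fos differed by 5.65 ± 0.34 (adjusted p = 4.18e-09), Jun by 3.73 ± 0.31, Fosb by 3.66 ± 0.38, Ppp1r15a by 3.40 ± 0.18, Hspa1a by 3.22 ± 0.70 and Dusp1 by 3.09 ± 0.27. The Hspa1a difference lay in the mesenteric node, at 9.452 to 32.28 CPM in A against 0.04921 to 3.272 CPM in C. In the joint nodes A (0 to 0.9758 CPM) and C (0 to 0.6348 CPM) overlapped. By role, 6 of 8 AP-1 and ATF factors, 7 of 8 feedback inhibitors, 4 of 7 other early response genes, 2 of 7 chaperones, 2 of 6 Egr and Nr4a factors and 1 of the 2 surface genes passed. Of the receptor-linked factors, Nr4a1 differed by 0.58 ± 0.14 and Egr1 by 0.42 ± 0.08, while Nr4a2 (0.70 ± 0.24, adjusted p = 0.059), Egr2 (−0.11), Egr3 (−0.04) and Nr4a3 (0.15) did not pass. With both sorts pooled, Nr4a1 ranged from 72.76 to 265 CPM in A and from 67.54 to 166.3 CPM in C, and these ranges overlap. They mix the sorts, since joint node Treg (124.6 to 265 CPM) lay above joint node Tconv (67.54 to 105.8 CPM). Fitted with a mean per group, the Nr4a1 difference passed (adjusted p = 0.00919). Of 19 other genes known to rise in warm tissue digestion, 14 were higher in A and 0 lower. Of 18 other genes raised by the T cell receptor, 7 were higher and 0 lower. Fibroblast marker sums were at most 3.235 CPM in the nodes of A and 6.769 CPM in those of C. The labels give no handling times, and their part in these differences was not tested.

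**Figure D4:**
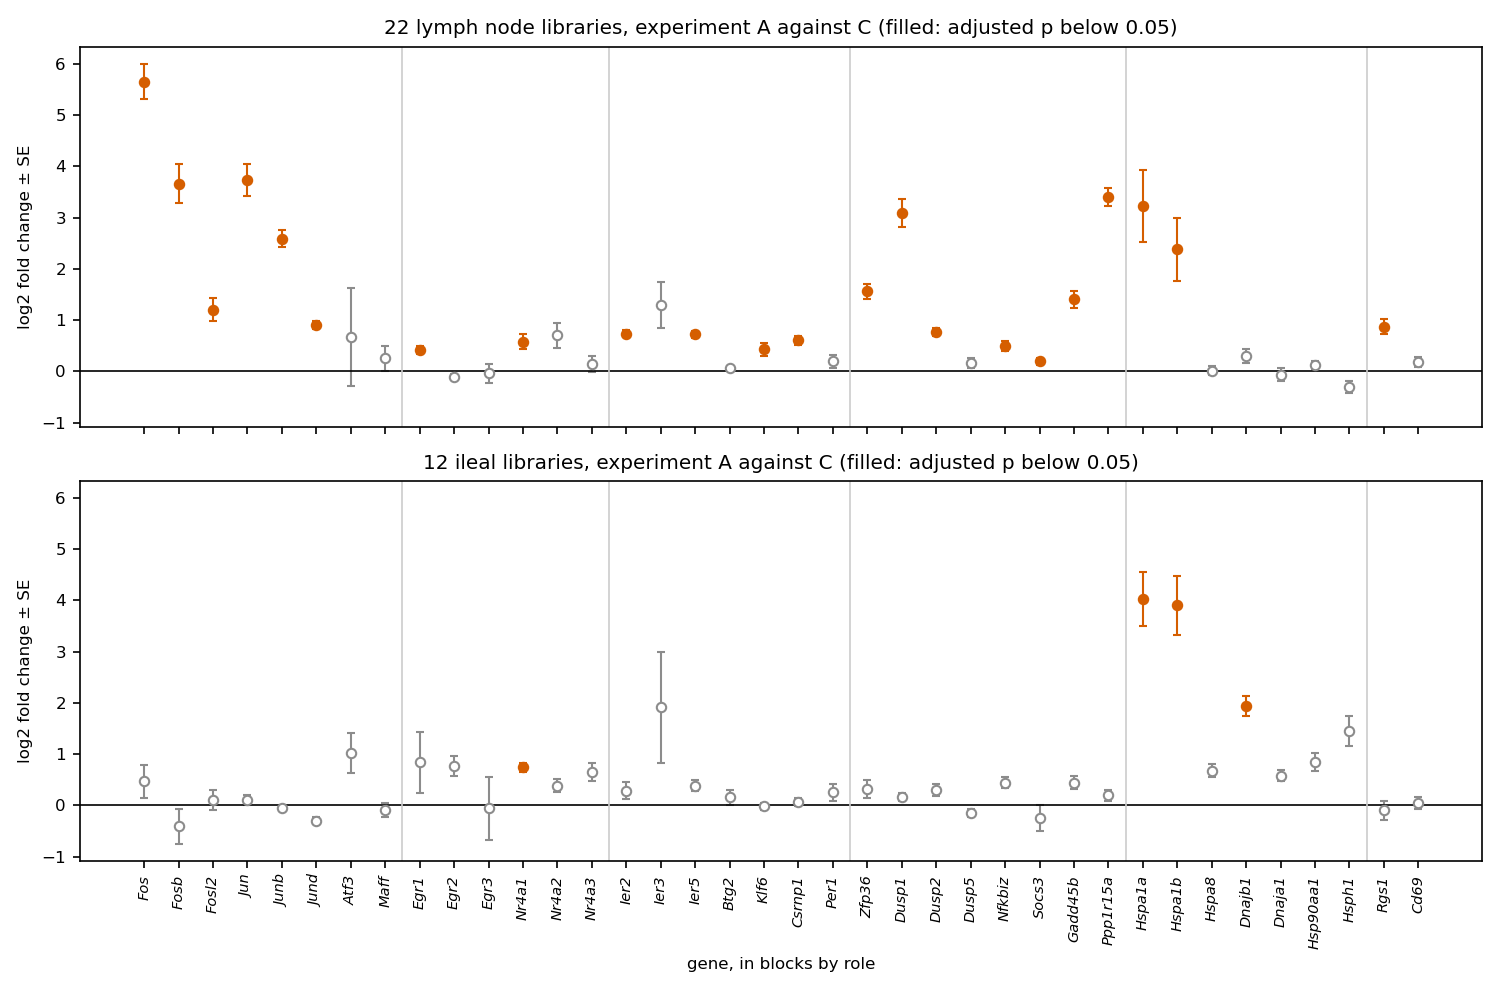
Log2 fold change of experiment A against C with its SE (y axis) for each member (x axis, in blocks by role), in the 22 node libraries (top) and the 12 ileal libraries (bottom); filled points have an adjusted p below 0.05. In the nodes Fos, Jun and Fosb stand highest, and in the ileum Hspa1a and Hspa1b.

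In the ileum the HSP70 pair differed most by experiment among the members, and the other chaperones moved the same way between A and C. The sum of Hspa1a and Hspa1b lay at 1348, 1949 and 3379 CPM in experiment A, at 725.5, 938.2 and 1627 CPM in B and at 45.25, 110.4 and 413.4 CPM in C. Each ileal library of experiment C stood below every ileal library of the others. In the synovium C has 1 library, TNFdARE Treg, at 994.4 CPM, against 644.8 CPM in A and 264.4 CPM in B of that group. Over the 12 ileal libraries, A minus C was 4.03 ± 0.52 for Hspa1a (adjusted p = 0.0201), 3.90 ± 0.58 for Hspa1b (adjusted p = 0.031), 1.94 ± 0.19 for Dnajb1 and 0.75 ± 0.09 for Nr4a1 (edgeR; chosen after the values were seen). These 4 members were higher in A and 0 lower, where 0.421% of 15916 genes passed as higher and 0.0440% as lower. Fos differed by 0.47 in the same fit and did not pass. Hsph1 (1.446 ± 0.292), Hsp90aa1 (0.848 ± 0.182), Hspa8 (0.675 ± 0.126) and Dnaja1 (0.578 ± 0.106) were higher in A and did not pass either. The median log2 difference of the 7 chaperones was 1.446, against 0.017 for all genes.

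Because experiments differed, tissue was also set against node within the same experiment, sort and genotype, which gives 18 pairs. In all 18 pairs 24 of the 38 members were higher in tissue, where 3.39% of 22243 genes were, and 0 were lower in all (5.02% of genes). Nr4a1 was higher by 2.62 to 4.79 on the log2 scale. Fos was higher in 17 of 18 pairs, from −0.43 in TNFdARE Treg of experiment B, with 832.1 CPM in the ileum and 1123 CPM in the mesenteric node, up to 8.61. For WT Tconv of ileum and mesenteric node the Fos difference was 1.83 in A, 4.44 in B and 7.40 in C, with node levels of 423.2, 72.63 and 12.27 CPM and ileal levels of 1511, 1578 and 2094 CPM. Hspa1a was higher in all 18 pairs, by at least 3.35. In 2 of them the node library was at 0 CPM, so no upper value is given. Egr3 was lower in tissue in 17 pairs, Egr2 in 15 and Dusp2 in 15. The WT ileal Tconv library of experiment C had the lowest fibroblast marker sum of the tissue libraries, 3.681 CPM, with 9.255 CPM of epithelial, 261 CPM of plasma cell and 60.84 CPM of mast cell markers. Its Fos was 2094 CPM, its Nr4a1 1214 CPM and its Fosl2 302.2 CPM. Summed myeloid markers had a median of 4.011 CPM in ileal and 8.71 CPM in mesenteric Tconv. In Treg the medians were 14.75 CPM in the ileum and 4.617 CPM in the mesenteric node, and 11.61 CPM in the synovium and 4.958 CPM in the joint nodes. The part of these cells was not tested.

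The number of a library on the sample sheet also goes with place. Numbers from 33 up belong to 10 libraries, 9 of them of tissue. Those 9 had 13341 to 17401 genes detected, and the other 11 tissue libraries 19003 to 20887. With this split as a covariate, the synovial Treg calls on Nr4a3 (1.598, adjusted p = 0.064), Ppp1r15a (3.565, 0.0642), Btg2 (0.442, 0.121), Egr2 (−1.431, 0.0726), Dnajb1 (0.416, 0.247), Hsp90aa1 (0.289, 0.254) and Hspa8 (0.114, 0.632) were lost. There 26 members were then higher and 2 lower, with 12.9% and 9.36% of genes. So were those on Dnaja1, Hspa1b, Ier2 and Zfp36 in ileal Treg, and on Btg2, Dusp2, Hsph1 and Ier2 in TNFdARE synovial Tconv.

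Other lists, set beside the members, moved as follows. Of 20 other genes known to rise in warm tissue digestion, 16 were higher and 2 lower in ileal Treg (median log2 difference 1.70), with Tnfaip3 at 4.29 and Cebpb at 2.91. They were higher in 16 in ileal Tconv, 16 in synovial Treg and 15 in TNFdARE synovial Tconv, with medians of 2.25, 1.72 and 2.80. Of all tested genes 34.3%, 19.2% and 17.2% passed as higher in these comparisons, in this order. How many genes of the list were lower in them is not given here. Of 18 other genes raised by the T cell receptor, 8 were higher and 2 lower in ileal Treg (median 0.58), with Bhlhe40 at 4.73, Dusp4 at 3.99 and Tnfrsf4 at 2.02. In ileal Tconv 15 of these were higher and 2 lower (median 1.37), and in synovial Treg 11 and 2 (median 1.03). Their count in TNFdARE synovial Tconv is not given here, so the digestion and receptor lists are not set out like for like. Of 13 genes of the unfolded protein and integrated stress responses, 7 were higher and 0 lower in ileal Treg, with Atf4 at 1.84, Dnajb9 at 1.75 and Hspa5 at 1.19. How much of the tissue difference belongs to receptor signalling or to dissociation was not tested.

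Treg and Tconv of the same site were compared next. In the nodes the member counts lay near those of all genes in the higher direction and below them in the lower. In the joint nodes 11 of 37 tested members were higher in Treg and 1 lower, where 22.1% and 21.2% of genes were; in the mesenteric node 10 and 1 of 38 (20.8% and 17.8%). Rgs1 was at 489.2 to 972.6 CPM in node Treg and 7.897 to 108.3 CPM in node Tconv, without overlap, and was 4.37 ± 0.30 higher in the joint nodes and 3.48 ± 0.24 higher in the mesenteric node on the log2 scale. In the joint nodes Nr4a2 was 2.45 ± 0.29 higher, Nfkbiz 1.59 ± 0.12, Gadd45b 1.34 ± 0.36, Nr4a1 1.11 ± 0.14, Dusp5 1.10 ± 0.09, Egr2 0.99 ± 0.07 and Nr4a3 0.89 ± 0.12, and Dnajb1 was lower (−0.37 ± 0.09). In the mesenteric node Gadd45b (2.10 ± 0.32), Dusp5 (1.32 ± 0.14) and Nfkbiz (1.26 ± 0.21) were higher in every fit that left out a library. The call on Nr4a1 there (0.90 ± 0.24) was lost without the TNFdARE Treg library of experiment B or the TNFdARE Tconv library of C; over all alternatives its difference ranged from 0.48 to 1.16.

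With experiment as a block the mesenteric count was 17 higher and 3 lower (22.6% and 19.3% of genes), and Dusp1 (1.99 ± 0.34), Jun (1.28 ± 0.20) and Junb joined. In the joint nodes it was 14 and 4 (24.6% and 23.8%), with Dusp1 at 1.36 ± 0.17. In the ileum 2 members were higher in Treg and 4 lower, where 7.93% and 6.85% of genes were. Atf3 was 1.80 ± 0.41 higher, and Maff (−0.92 ± 0.14) and Btg2 (−0.63 ± 0.12) were lower. Dusp1 (0.36), Egr2 (−0.82) and Rgs1 (−0.49) also passed, but held in 2, 3 and 3 of 12 fits that left out a library. The ileal count fell to 3 without WT Tconv A, WT Tconv B, TNFdARE Tconv C or TNFdARE Treg C. No share of all genes is given for those fits, so a change of the members alone cannot be read from that fall. With the block 7 were higher and 4 lower (9.53% and 8.27% of genes). In the TNFdARE synovium no member passed (0 of 38 by edgeR, 1 at an unadjusted p under 0.05, which is Nfkbiz, and 1 by DESeq2), where 0.00% of genes were higher and 0.00% lower. Foxp3 was 602.2 CPM in TNFdARE synovial Tconv against 30.61 CPM in the WT library, so that the Foxp3 message was not low in the sort labelled Tconv; its part in that result was not tested.

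The ileum effect differed between the sorts for 8 members (interaction of site and sort), where 1.41% of genes had a positive and 4.84% a negative interaction. All 8 interactions, Treg minus Tconv, were negative. For Egr2 this was a larger fall in Treg, and for the others a smaller rise in Treg. Rgs1 (−3.98 ± 0.31), Gadd45b (−1.99 ± 0.37), Maff (−1.61 ± 0.32) and Dusp5 (−1.42 ± 0.17) were among them. Node Treg already held more of Rgs1, Gadd45b and Dusp5 than node Tconv, and ileal levels of Gadd45b overlapped between the sorts, at 642.7 to 995 CPM in Treg and 592.8 to 929.5 CPM in Tconv. Summed Treg markers were 1797 to 3616 CPM in ileal Tconv and 80.9 to 272 CPM in node Tconv; their part in the interaction was not tested.

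Few members passed between TNFdARE and WT at any site. Tnf itself was 84.25 ± 37.15 CPM (SD, n = 2) in TNFdARE and 37.82 ± 8.59 CPM (n = 3) in WT mesenteric Treg. Members higher and lower were 0 and 0 in ileal Treg (0.484% and 0.245% of genes), 0 and 0 in ileal Tconv (1.17% and 0.138%) and 0 and 0 in synovial Treg (0.111% and 0.0445%). These zeros are from edgeR; at an unadjusted p under 0.05 there were 5, 3 and 11 members, and DESeq2 passed 2, 1 and 9, where it passed 5.62%, 4.59% and 7.53% of genes. Without the WT synovial Treg library of experiment B, 7 passed in synovial Treg, as did 8.05% of genes. Hspa1a, Hspa1b and Ier3 lie 227, 240 and 620 kb from Tnf on chromosome 17, and none of them passed in a genotype comparison.

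In node Tconv the genotype showed in Socs3 and Rgs1. Socs3 lay at 523.2 and 481.5 CPM in TNFdARE mesenteric Tconv and at 224.3, 214.5 and 222.7 CPM in WT. The groups do not overlap, and the log2 difference was 1.18 ± 0.09 (adjusted p = 4.42e-05), kept in all 10 alternatives. In joint node Tconv Socs3 lay at 169.2, 164.5 and 147.8 CPM against 104.4, 114.5 and 83.68 CPM (0.67 ± 0.14, adjusted p = 0.0128). That call was lost without TNFdARE A (adjusted p = 0.073), WT A (0.0566) or TNFdARE B (0.0554). Rgs1 lay at 108.3 and 107.4 CPM in TNFdARE mesenteric Tconv and at 52.78, 25.98 and 23.14 CPM in WT. It was 1.66 ± 0.30 higher (adjusted p = 0.0123), which was lost without WT B (0.0591) or TNFdARE C (0.073). In joint node Tconv Rgs1 was at 96.17, 47.69 and 38.61 CPM (A, B, C) against 34.28, 15.03 and 7.897 CPM, or 1.67 ± 0.39 higher (adjusted p = 0.0322), which was lost without TNFdARE A (0.213), WT B (0.177) or WT C (0.0539). In mesenteric Tconv 1.79% of genes were higher and 0.574% lower, and in joint node Tconv 2.29% and 0.504%. Foxp3 moved the same way, at 34.52 CPM in TNFdARE against 6.629 CPM in WT joint node Tconv and at 29.33 against 6.77 CPM in the mesenteric node, and its part in the Rgs1 difference was not tested. With the block Jund also passed in joint node Tconv, as lower (−0.44 ± 0.08).

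In node Treg few members passed, and more did with experiment as a block. In mesenteric Treg Gadd45b lay at 207.2 and 68.09 CPM (B, C) against 65.48, 36.35 and 36.55 CPM in WT (A, B, C), 1.59 ± 0.42 higher (adjusted p = 0.0453), where 3.84% of genes were higher and 1.84% lower. That call was lost without TNFdARE B (0.56, adjusted p = 0.573), WT B (adjusted p = 0.169) or WT C (0.123). With the block 9 members were higher, where 4.80% of genes were: Fosb (2.60 ± 0.65), Gadd45b (1.85 ± 0.29), Jun (1.69 ± 0.29), Maff, Fosl2, Junb, Ppp1r15a, Rgs1 and Ier5. TNFdARE has only B and C there. Within them the Fosb difference was 3.86 in B and −0.25 in C, that of Ppp1r15a 2.05 and 0.05, that of Fosl2 2.15 and 0.38, and that of Gadd45b 2.51 and 0.90. The differences of all 9 were larger in B. In joint node Treg Btg2 lay at 332.8, 389.9 and 338.9 CPM against 512.2, 489.3 and 442.3 CPM in WT, 0.45 ± 0.08 lower on the log2 scale (adjusted p = 0.00404), with no overlap, where 3.36% of genes were higher and 2.34% lower. Fos lay at 265.4, 148.4 and 6.627 CPM (A, B, C) against 724.9, 296.3 and 11.43 CPM, lower in TNFdARE in each experiment, though the 3 experiments spread far more than the genotypes. With the block 8 members were lower, where 4.79% of genes were: Fos (−1.13 ± 0.18, adjusted p = 0.00145), Zfp36 (−0.92 ± 0.16), Ppp1r15a (−0.85 ± 0.18), Nfkbiz (−0.56 ± 0.11), Btg2, Dusp2, Egr1 and Klf6. Chosen after the values were seen, Btg2 was lower in TNFdARE than in WT in all 19 pairs of one experiment, sort and site, by 0.074 to 1.344 on the log2 scale, where 0.126% of genes were lower in all. Dusp2 was lower in all 10 Treg pairs, where 0.823% of genes were. Both shares are over the 22243 genes used for the tissue and node pairs, with the same limit. Whether the genotype effect differs between the mesenteric and the joint nodes was not tested.

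**Figure D5:**
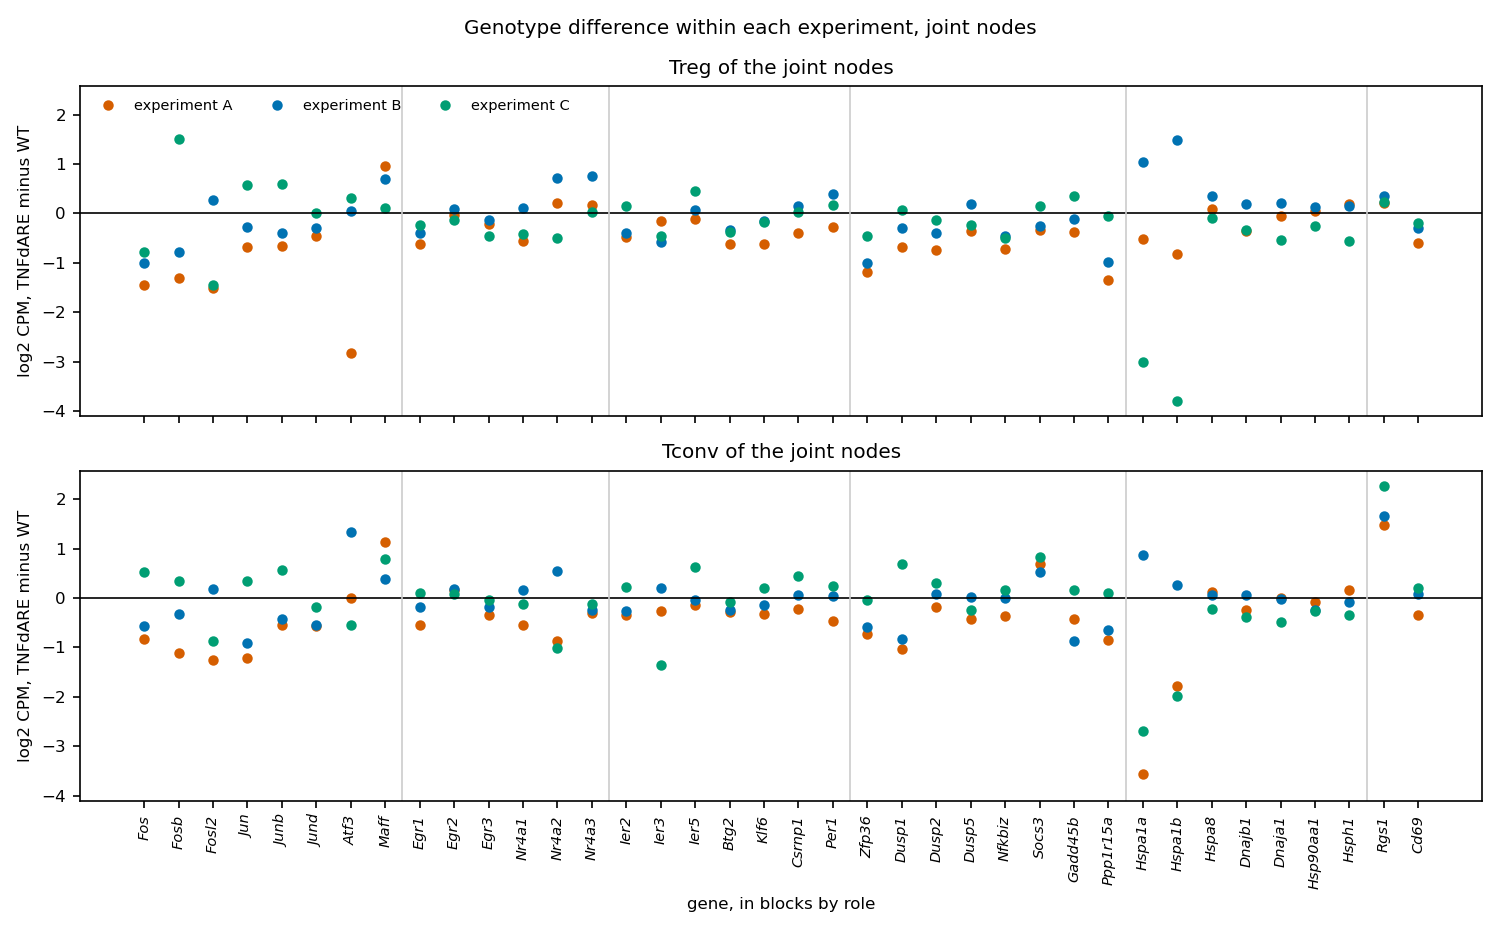
Difference in log2 CPM between TNFdARE and WT of the same experiment (y axis) for each member (x axis, in blocks by role) in joint node Treg (top) and Tconv (bottom), with 1 point per experiment. Fos and Btg2 in Treg are below 0 in A, B and C, and Rgs1 in Tconv is above 0 in each.

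Treg of the ileum and the synovium, set against each other, had nearly the same score (difference −0.05, pooled SD 0.313) but a different make-up: 7 members were higher in the ileum and 4 in the synovium, where 4.71% and 2.71% of genes were. Fosb lay at 41.67, 59.74 and 78.46 CPM in ileal Treg and at 243.3, 313.8 and 329.2 CPM in synovial Treg, with no overlap, a log2 difference of −2.32 ± 0.21 (adjusted p = 0.000299). Fos was also lower in the ileum (−1.56 ± 0.28), as was Jund (−0.84 ± 0.10). Hsph1 was higher in the ileum (2.18 ± 0.39), with Ppp1r15a (1.03 ± 0.18), Dnaja1 (1.23 ± 0.27, held in 6 of 11 fits that left out a library), Per1 (0.77 ± 0.16) and Dusp5 (0.63 ± 0.13). Fosl2, Nfkbiz and Cd69 passed too, but held in 3, 0 and 3 of 11 fits that left out a library. The count was 6 without WT ileal Treg A, and 7 without TNFdARE synovial Treg A, WT synovial Treg A or TNFdARE ileal Treg B. Without both ileal Treg libraries of experiment A, which hold the most plasma cell RNA, 1 member was higher and 3 lower. The share of all genes in these refits is not given here, so a change of the members alone cannot be read from the counts. Fibroblast marker sums were higher in synovial than in ileal Treg in most libraries, as given above, and their part in the AP-1 difference was not tested.

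Levels of different genes can be ordered only per length, from the authors' deposited FPKM values. In WT joint node Treg the order opened with Junb (582.3 FPKM), Zfp36 (434.2), Hspa8 (317.0) and Dusp2 (308.0) and closed with Fosl2 (0.4611), Hspa1a (0.2772) and Atf3 (0.1839). In WT ileal Treg it opened with Junb (2601), Ppp1r15a (1402), Nr4a1 (1197) and Fos (694.6) and closed with Maff (13.82), Egr2 (11.83) and Egr3 (0.2797). In TNFdARE synovial Treg it opened with Junb (2601), Nr4a1 (856.6), Zfp36 (797.8) and Fos (787.8). The identical value for Junb in both tissues is a repeat in the deposited table, whose values recur exactly across libraries, so they serve here only to order members within a group.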

How the data were processed

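RNA libraries (SMART-Seq v4 PLUS, from 100 pg or 2 ng RNA; which library had which is not stated) were read as single reads of 100 bases, per the labels' protocols. Reads were trimmed with cutadapt 1.15 and mapped with Bowtie2 2.3.3.1, per the submitters' processing notes; the counter is not given in the sources used here. The deposited gene counts are whole numbers, not normalized, and 18261064 to 30301202 per library. The authors' deposited FPKM values were used only to order members. Of 46603 genes, 46005 had a GENCODE symbol.

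Counts were tested with edgeR 4.0.16 (quasi-likelihood, TMM, filterByExpr with a minimum count of 10, Benjamini-Hochberg over all tested genes, threshold 0.05) in R 4.3.3, after a check on simulated data. Comparisons across both genotypes weight them equally. CPM are TMM-scaled over 42 libraries, and log2 CPM has a prior count of 2. DESeq2 1.42.0, another normalization, no filter, the experiment as a block, a sample-sheet covariate, a fit of all 42 libraries, single genotypes and leaving out each library were the alternatives. All 38 members are named; of other lists, up to 4 genes per comparison with the smallest adjusted p. The members and lists were chosen with earlier results of these data known. The design text says the letters A, B and C mark independent experiments, so they pair samples. Of 69 same-letter pairs, some entered in both orders, 26 had deviations over all genes correlated above 0.1 (median 0.066, range −0.529 to 0.459). Over the 38 members alone the correlations ran from −0.438 to 0.946. For Treg with Tconv of the same node they were 0.733 to 0.946. The main fits leave this pairing out, and the block takes it in. Nothing states how many animals a library holds, so p-values measure the spread between these libraries.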

Additional observations from a re-analysis of the deposited data

Results flagged for a closer look

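The difference between ileum and mesenteric node was not the same in Treg and Tconv for 8 members, by the interaction term of a single edgeR fit of both sorts (Benjamini-Hochberg adjusted p below 0.05). All 8 differences, Treg minus Tconv on the log2 scale, were negative: Rgs1 −3.979, Gadd45b −1.995, Maff −1.61, Dusp5 −1.422, Egr2 −1.328, Nfkbiz −0.97, Per1 −0.827 and Btg2 −0.673. For Egr2 both sorts were lower in the ileum, and Treg more so. For the others both sorts were higher in the ileum, and Treg less so. Maff, Egr2, Dusp5, Gadd45b and Rgs1 passed under all 29 alternatives, Btg2 under 27, and Per1 and Nfkbiz under 13 each. Without the TNFdARE mesenteric Treg library of experiment B, 5 members passed. The share of all genes in that fit is not given here.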

How the results depend on the processing

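No called member changed sign under the alternatives run. The member counts of ileal against synovial Treg moved with the fit. In the main fit 7 were higher and 4 lower (4.71% and 2.71% of genes), but 6 and 8 when the 42 libraries were fitted together. DESeq2 gave 7 and 8. Without both ileal Treg libraries of experiment A, chosen after seeing the data, they were 1 and 3. Where no share of all genes stands beside a count in this section, a change of the members alone cannot be read from it. With experiment as a replicate block, members passed were 9 in mesenteric Treg and 8 in joint node Treg between genotypes, and 11 in the ileum and 20 in the mesenteric node between Treg and Tconv; the report gives the other calls it changed. Without a filter on low counts, genotype comparisons passed 13 members in mesenteric Treg (4.91% of genes), 9 in mesenteric Tconv (3.09%), 13 in joint node Treg (3.01%), 10 in joint node Tconv (1.67%) and 2 in synovial Treg (0.576%), and Treg against Tconv passed 28 in the mesenteric node (21%) and 21 in the joint nodes (20.7%). DESeq2 passed 2 in ileal Treg, 1 in ileal Tconv, 3 in mesenteric Treg (8.36% of genes), 3 in joint node Treg (11.2%) and 9 in synovial Treg between genotypes, and 1 between TNFdARE synovial Treg and Tconv (1.44%). A fit of all 42 libraries passed 1 in ileal Treg, 0 in mesenteric Treg, 0 in joint node Treg, 1 in joint node Tconv and 6 in synovial Treg (15.8% of genes). The sample-sheet covariate gave 2 in joint node Treg and 3 between ileal Treg and Tconv. TNFdARE libraries alone gave 15 in ileal against mesenteric Treg (6.62% of genes) and 4 in ileal against synovial Treg, where WT libraries alone gave 3. Without both ileal Treg libraries of A, 4 passed there. The score difference over members with at least 1 CPM in every library was 2.277 in ileal Tconv, 1.744 in synovial Treg and 2.008 in TNFdARE synovial Tconv. Leaving out single libraries gave, between genotypes, 0 to 1 members in ileal Treg, 0 to 3 in mesenteric Treg, 1 to 2 in mesenteric Tconv, 1 to 2 in joint node Treg, 0 to 2 in joint node Tconv and 0 to 7 in synovial Treg. It gave 3 to 6 between ileal Treg and Tconv, 6 to 11 between ileal and synovial Treg and 5 to 9 in the interaction. The cause was not tested. Members with few counts in the nodes (Atf3, Ier3, Hspa1a) are limited by depth there.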

Other observations

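WT synovial Tconv is a single library, so its group was tested in no comparison of its own; it is 1 of the 18 pairs of tissue and node. In it Fos was 3497 CPM, and Dusp2 was 1278 CPM against at most 720.9 CPM in any node library. Its summed CD8 and NK cell markers were 1105 CPM and its summed myeloid markers 163 CPM, and Cd4 was 300.3 CPM.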
